A study of Mus musculus with 19 samples.

Results

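Collagens are the structural proteins of the extracellular matrix, and the collagen genes of the mouse heart were followed here through the first weeks after birth, with and without a conditional knockout (cKO) of PDK1. The members were the genes whose symbol is Col, a number, a and a number, which named 44 of the 56066 genes in the deposited table. They comprised 11 fibrillar collagens, 8 basement membrane collagens and 25 others, among them 6 type VI chains, 9 FACIT collagens (which sit on fibrils), 3 short-chain network collagens and 4 collagens that span the cell membrane. RNA from hearts was measured in 5 groups, wild-type (WT) hearts at postnatal day 1 (P1, 3 libraries), cKO and WT hearts at P7 (3 and 5 libraries) and cKO and WT hearts at P21 (3 and 4 libraries). The labels give genotypes only as PDK1 CKO and WT, and sex, the Cre driver and the number of animals behind each library are not given in the sources used here, so p-values measure the spread between libraries. The earliest age is P1 in the labels, which are followed here, and P0 in the series' design text. A further P21 library, numbered 63, is cKO by its genotype label, but its title lacks the KO that the cKO titles hold, and it entered no group.

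Collagen chains wind around each other into rope-like helices before they leave the cell. Types I, III and V form the fibrils that carry tension between cardiac muscle cells, and type I and III fibrils are made mainly by cardiac fibroblasts. Type IV collagen is the sheet-forming scaffold of basement membranes around muscle cells and capillaries, where types XV and XVIII are also found. Type VI collagen forms beaded microfibrils next to basement membranes. In the newborn heart the matrix is laid down while the muscle grows, and collagen transcript levels are known to decline as the heart matures.

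Levels were TPM (abundance of a transcript among all transcripts, per unit of length) from the authors, which allow levels of different genes to be set side by side. Since TPM keeps no read depth, the depth behind the values is unknown, and libraries had 12422 to 13797 genes at 1 TPM or more. Pdpk1, the gene that the name PDK1 may stand for besides Pdk1, had 7.95 to 8.09 TPM in P7 cKO hearts and 7.96 to 11.9 TPM in P7 WT hearts. At P21, Pdpk1 had 4.95 to 5.55 TPM in cKO hearts and 6.17 to 7.65 TPM in WT hearts, and values over whole genes cannot show a deleted exon. The 9 cardiac muscle markers summed to 49259 to 52386 TPM in P21 cKO hearts and 45519 to 50987 TPM in P21 WT hearts, so the libraries carry heart muscle transcripts. All P1 titles, 2 of the P7 WT titles and 2 of the P21 WT titles hold a letter code and the others are plain numbers, so title style was a term of the model. Within P7 WT hearts Col4a1, Col4a2, Col15a1, Col26a1 and Col9a2 were lower in the 2 letter-code libraries than in the 3 plain ones with no overlap. In the opposite direction, Col5a2, Col4a5, Col5a3, Col6a6, Col27a1, Col13a1 and Col24a1 were higher in the letter-code libraries, also with no overlap. The share of all genes without overlap is not given here. The median of all 14812 tested genes lay 0.22 above 0 on the log2 scale between P21 cKO and P21 WT hearts, and at -0.47 between WT P21 and WT P7, -0.48 between WT P21 and WT P1, -0.24 between cKO P21 and cKO P7 and 0.24 for the difference between the P21 and P7 genotype effects. Gene changes below are therefore also given as the distance from that median gene, or after median-ratio scaling of the libraries. Log2 changes are limma estimates ± SE of log2(TPM + 1), where changes of low genes come out too small, and gene positions are on mm10.

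Collagen transcripts made up a mean of 0.201% of all TPM in P1 WT hearts. At P7 the share was 0.236% in cKO hearts and 0.247% in WT hearts, and at P21 it was 0.145% in cKO hearts and 0.0902% in WT hearts. Of the 44 members 33 had at least 1 TPM in at least 3 libraries and were tested, and 18 of them reached 1 TPM in each of the 18 libraries. The remaining 11 stayed at or under 2.6 TPM in each library, and 8 of these were under 1 TPM everywhere. They were Col2a1 and Col9a1 of cartilage, Col10a1 of growth plate cartilage, Col17a1 of the skin's hemidesmosomes, and Col6a4, Col6a5, Col19a1, Col20a1, Col22a1, Col25a1 and Col28a1. The 12 members with the highest mean level held 92.4 to 94.7% of all collagen TPM in each library. By mean level over the 18 libraries these were Col3a1, Col4a1, Col4a2, Col1a2, Col1a1, Col15a1, Col6a2, Col6a1, Col5a1, Col6a3, Col5a2 and Col18a1. Col3a1, the chain of type III collagen, took 25.1% of collagen TPM in P1 WT hearts, 24.6% in P7 cKO, 27% in P7 WT, 25.4% in P21 cKO and 24.4% in P21 WT hearts. The shares of Col15a1 went the other way from those of Col18a1. Col15a1 took 3.1% in P1 WT, 5.38% in P7 cKO, 4.92% in P7 WT, 7.75% in P21 cKO and 8.05% in P21 WT hearts, and Col18a1 took 2.69%, 1.72%, 1.66%, 0.576% and 0.557% in the same groups.

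**Figure D1:**
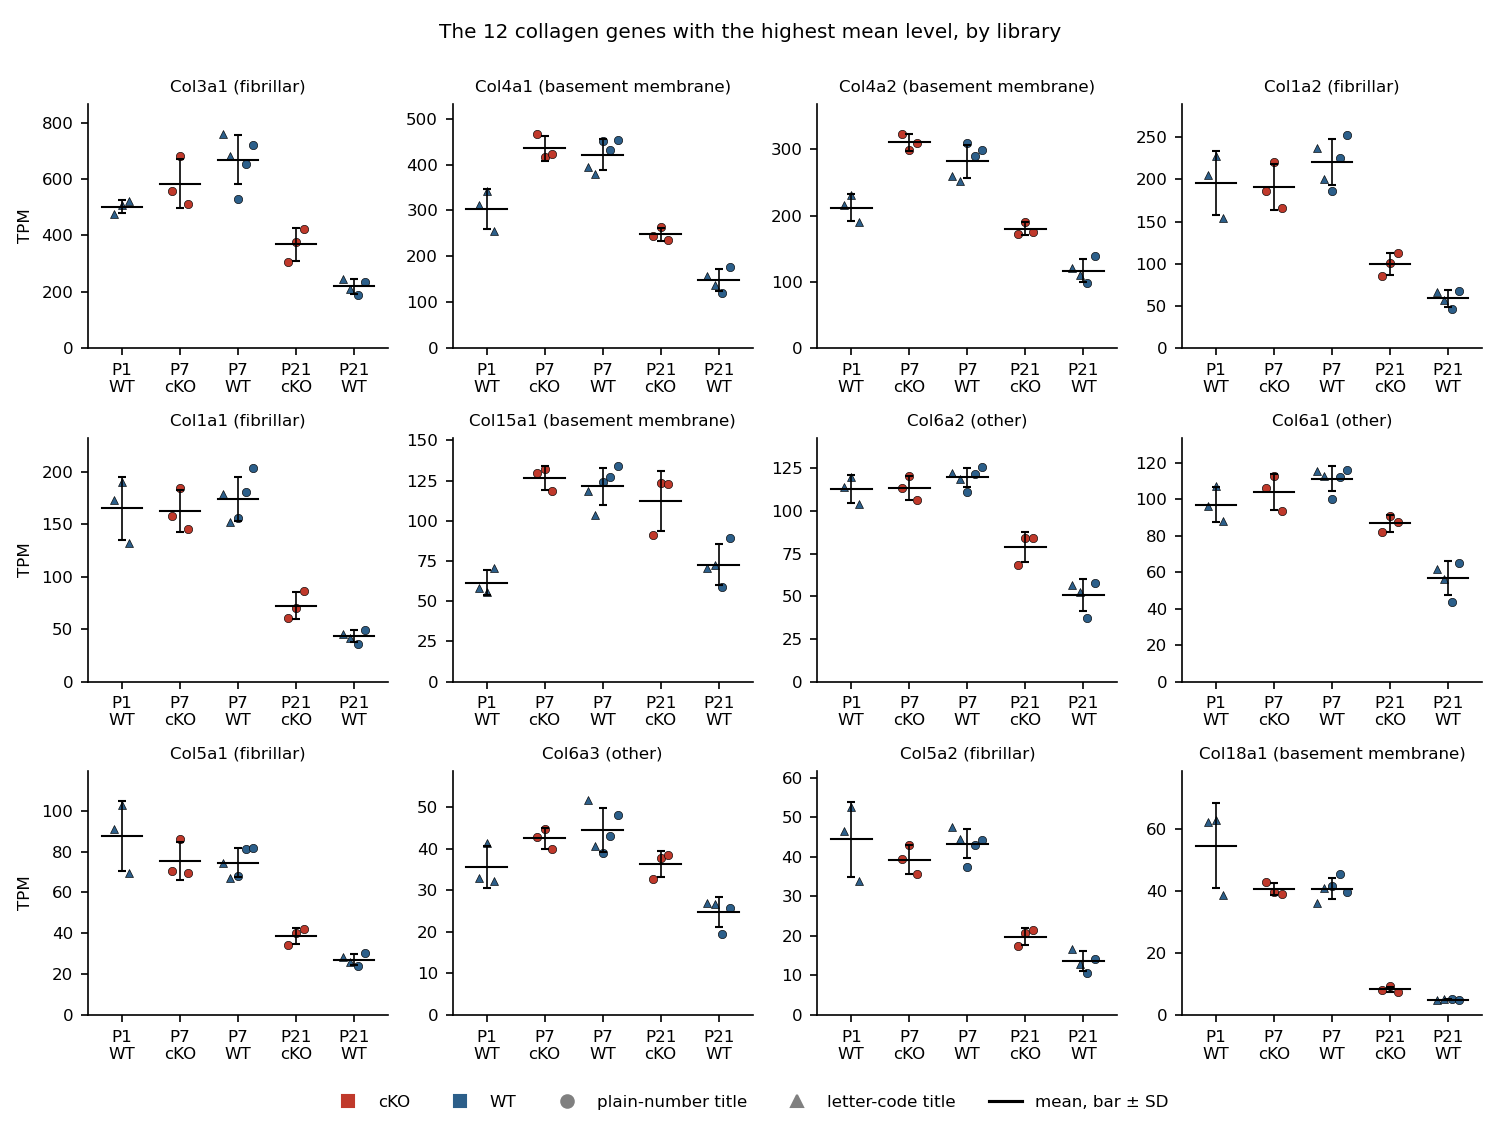
TPM of the 12 collagen genes with the highest mean level, 1 panel per gene, for each library of the 5 groups on the horizontal axis. Points are libraries (circles for plain-number titles, triangles for letter-code titles), lines are means and bars SD. In each panel the P21 cKO points lie above all P21 WT points.

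With age, the collagens of WT hearts moved in both directions by P7 and mostly fell by P21. In P7 WT hearts 9 of 33 tested members were higher than in P1 WT hearts and 6 were lower (called, at a Benjamini-Hochberg adjusted p under 0.05 in limma), against 13.8% and 14.7% of all tested genes. After median-ratio scaling the counts were 10 and 6, against 14.8% and 16.1%. The median change of the members was 0.21, and that of all genes -0.00113. The 15 calls became 9 without P7 WT library 1, and 6 of the 15 were lost in at least 1 of the fits that leave out a library. In P21 WT hearts 27 of 33 members were lower than in P7 WT hearts and 2 were higher, against 64.4% lower and 8.1% higher among all genes. The members' median change was -1.03, and after median-ratio scaling 22 were lower and 4 higher with a median of -0.69, against 27.4% and 27% of all genes. Against P1, 27 members were lower and 4 higher in P21 WT hearts, with 57.1% and 11% in the background, and 22 and 5 after scaling, with 29.6% and 27.6%. From P7 to P21 in WT hearts 9 of 10 endothelial and 5 of 5 proliferation markers fell, and 5 and 5 after scaling, when 2 endothelial markers were higher. Their part in the collagen falls was not tested. RNA of an organ cannot tell fewer cells of a type from less RNA per cell, in these and all later comparisons.

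The members fell into a few courses in WT hearts. Col3a1, Col14a1, Col15a1, Col4a1, Col4a2 and Col6a3 rose by P7 and fell by P21. Col18a1, Col9a2, Col11a1, Col23a1, Col13a1 and Col4a6 fell at both steps. A group of 15 members, with Col1a1, Col1a2, Col5a1, Col5a2, Col6a1 and Col6a2 among them, had no called change by P7 and fell by P21. Of the falls by P21, those of Col15a1, Col4a5, Col4a6, Col13a1 and Col7a1 were not called after scaling. Among the calls at P7 against P1, those of Col18a1 and Col4a2 were each lost in 4 of the 18 fits that leave out 1 library. That of Col6a3 was lost in 3, and those of Col3a1 and Col4a1 in 2 each. Col4a4 and Col4a3 rose at the later step, and Col5a3 and Col8a1 rose by P7 with no called change after it. Col4a4 was also called higher at P7 than at P1 (log2 change 0.43 ± 0.15, limma adjusted p = 0.0439), but this call was lost in 14 of the 18 fits that leave out 1 library. Col11a2 and Col9a3 had no called change at either step. In cKO hearts 19 of 33 members were lower and 4 higher at P21 than at P7, against 39% and 9.36% of all genes, with a median of -0.59. After scaling the counts were 17 and 4, against 20.2% and 19.5%. The 4 higher in cKO hearts were Col4a3, Col4a4, Col5a3 and Col8a1.

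**Figure D2:**
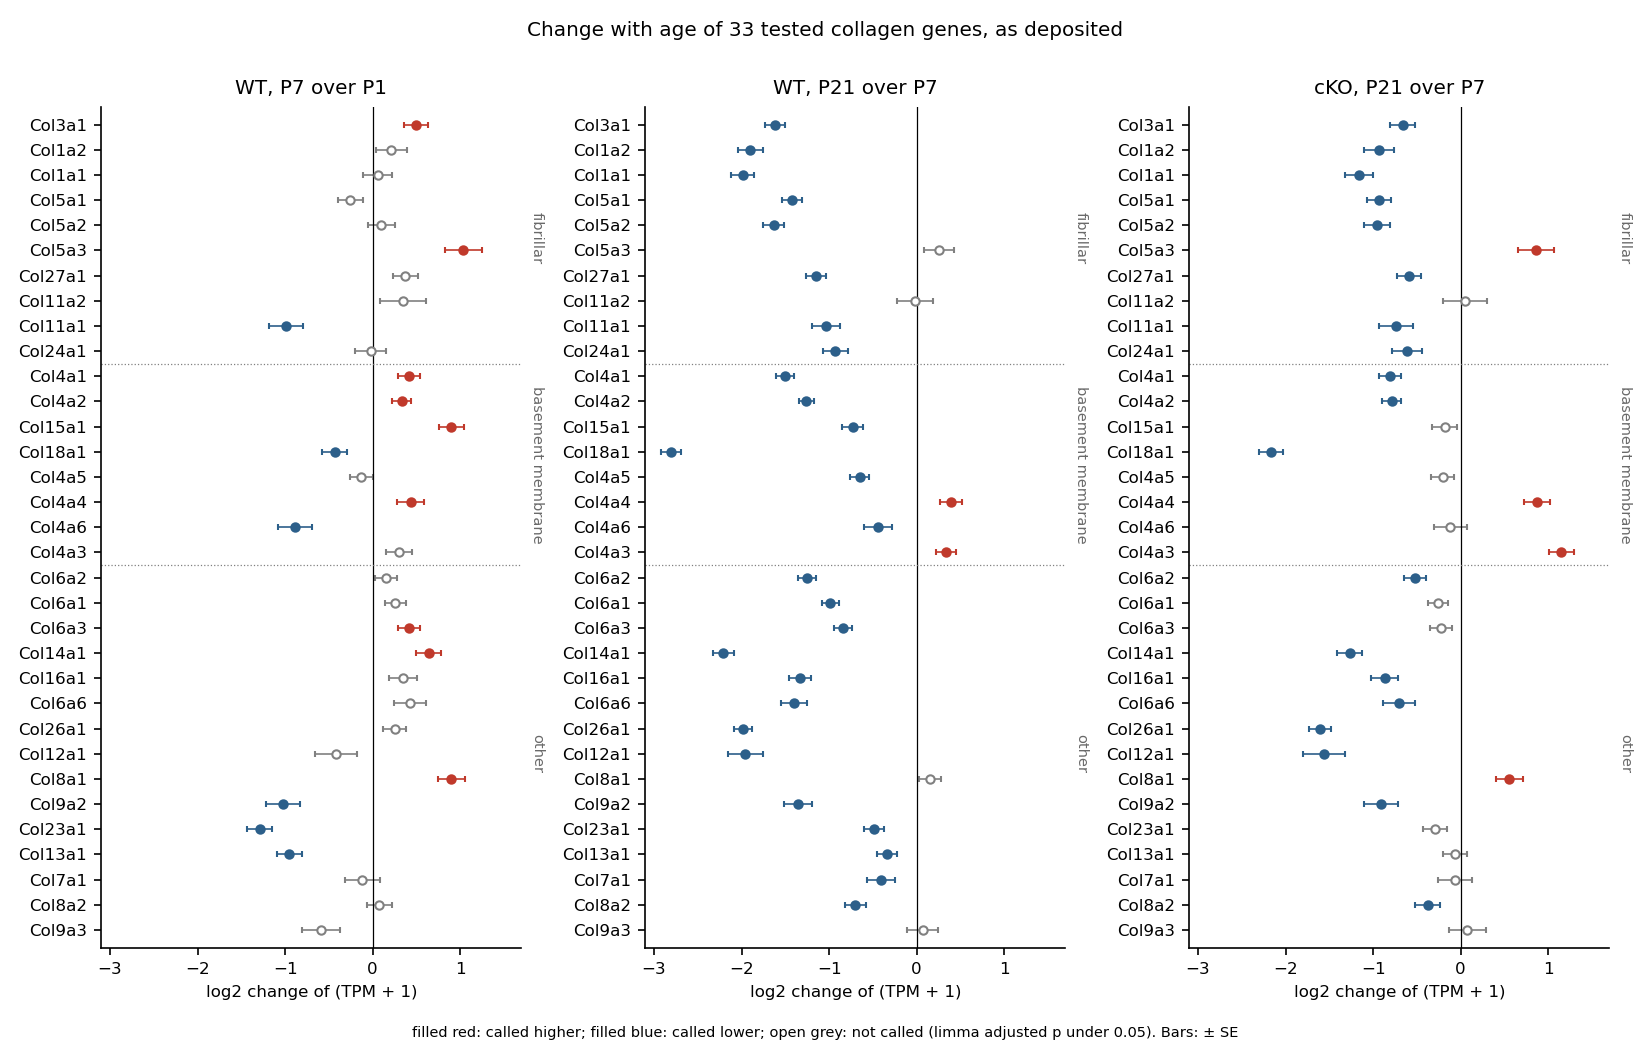
Log2 change of (TPM + 1) with age for the 33 tested collagen genes, grouped by class from top to bottom, for WT P7 over P1, WT P21 over P7 and cKO P21 over P7. Points are limma estimates with bars of 1 SE, filled where the adjusted p was under 0.05 (red higher, blue lower) and open where not. In WT hearts at P21 over P7, 27 points are blue, and Col18a1 lies farthest to the left.

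At P7 the genotypes gave no collagen call. Of 33 tested members 0 were called higher or lower in P7 cKO hearts against P7 WT hearts by limma, and 0 had an unadjusted p under 0.05. Among all genes 0.0203% were called higher and 0% lower, and 494 of 14812 had an unadjusted p under 0.05. Member changes ran from -0.30 (Col9a2) to 0.13 (Col8a1), and their median was -0.06, beside -0.02 for all genes. Col3a1 changed by -0.14 ± 0.13 (SE) and Col4a1 by 0.01 ± 0.12. The missed threshold does not show that the genotypes were alike at P7.

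At P21 the collagens were higher in cKO hearts. Of 33 tested members 20 were higher in P21 cKO hearts than in P21 WT hearts and 0 lower (limma adjusted p under 0.05), against 19.5% higher and 1.77% lower among all genes. Each class held calls, with 7 of 10 tested fibrillar, 7 of 8 basement membrane and 6 of 15 other collagens higher, and 3, 2 and 5 after median-ratio scaling. The members' median change was 0.55, beside 0.22 for all genes. Class medians were 0.58 for fibrillar, 0.56 for basement membrane and 0.26 for other collagens, and 0.38, 0.34 and 0.17 after scaling. In the other class the called genes were Col6a1, Col6a2, Col6a3, Col6a6, Col14a1 and Col8a1. After median-ratio scaling 10 members were higher and 0 lower with a median of 0.31, against 4% and 5.33% of all genes. These 10 were Col3a1, Col1a2, Col1a1, Col4a1, Col4a3, Col6a1, Col6a2, Col6a3, Col6a6 and Col14a1. In the same comparison 6 of 9 fibroblast and 8 of 10 endothelial markers were higher, and 2 and 1 after scaling, and their part in the collagen counts was not tested. Within plain-title libraries alone 15 of 27 tested members were higher. Shares of all genes are given only for the main and the median-ratio scaled fits, so this count has no background beside it. The 20 calls became 12 without P21 WT library 57, which had the lowest value of its group for 23 of 33 members, and 13 without P21 cKO library 59. Called in every fit that left out 1 library were Col3a1, Col1a2, Col14a1, Col4a1, Col4a2, Col4a3, Col6a1, Col6a2, Col6a3, Col6a6 and Col18a1.

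**Figure D3:**
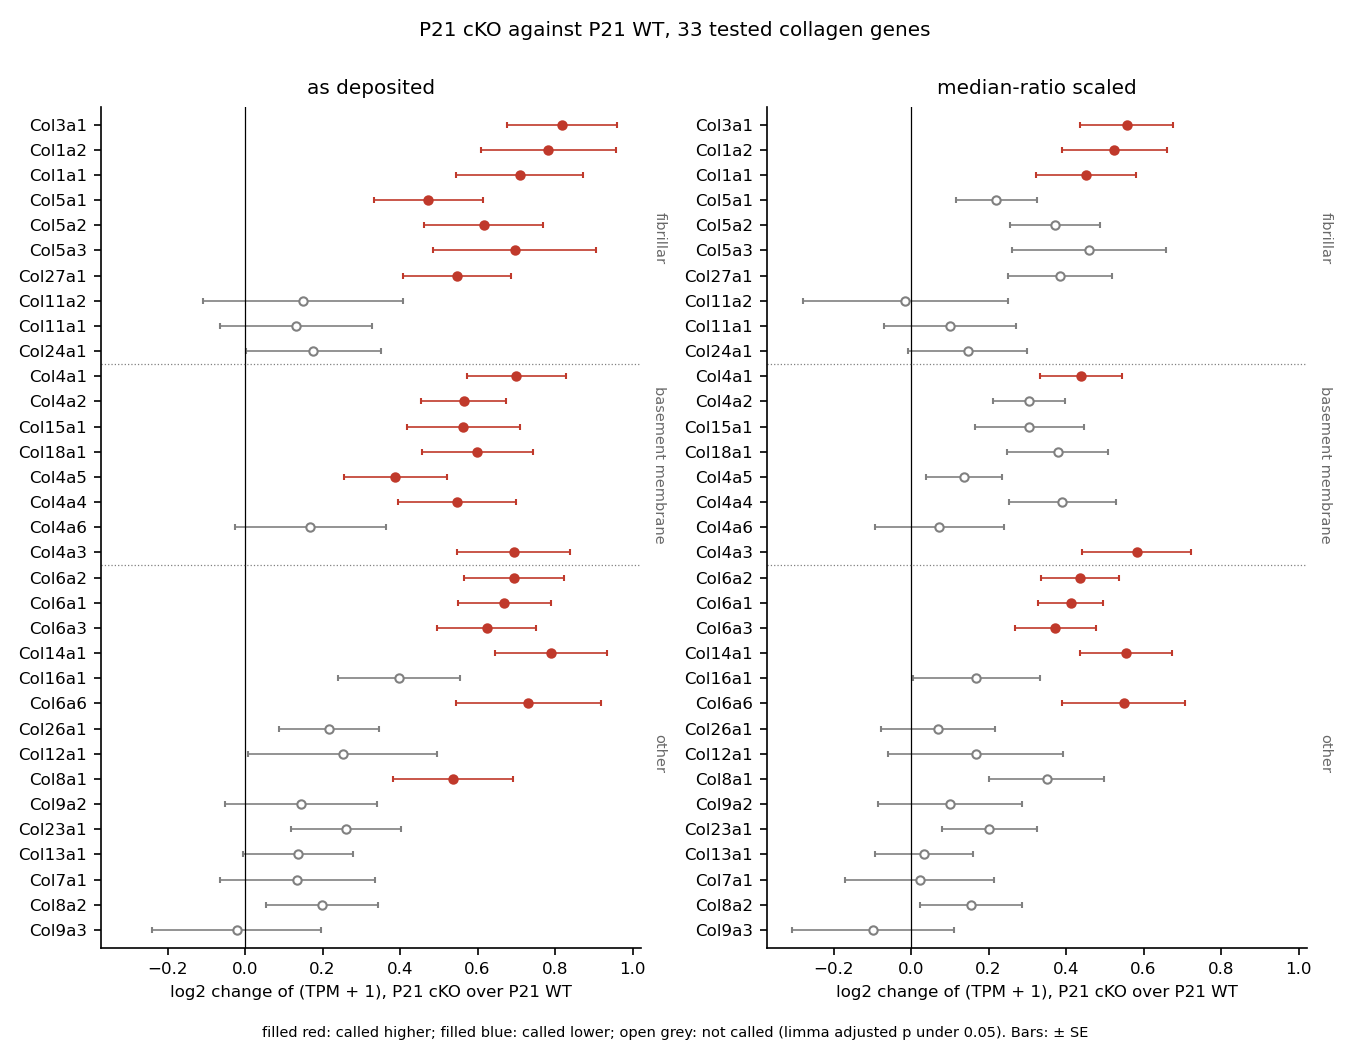
Log2 change of (TPM + 1) of the 33 tested collagen genes in P21 cKO over P21 WT hearts, as deposited (left) and after median-ratio scaling (right), by class. Points are limma estimates with bars of 1 SE, filled red where the adjusted p was under 0.05. The left panel holds 20 filled points and the right panel 10.

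The genotype effect was larger at P21 than at P7 for 12 members by the interaction term of the same model and smaller for 0, against 7.04% and 0.52% of all genes. They were Col1a2, Col3a1, Col14a1, Col1a1, Col4a3, Col6a1, Col6a2, Col4a1, Col5a2, Col18a1, Col6a3 and Col4a2. For Col3a1 the difference of effects was 0.95 ± 0.18 on the log2 scale (limma adjusted p = 0.00833), for Col14a1 0.94 ± 0.18 (limma adjusted p = 0.0099) and for Col6a1 0.73 ± 0.15 (limma adjusted p = 0.0139). After scaling 3 were larger and 0 smaller, against 0.932% and 1.4% of all genes, and the 3 were Col3a1, Col14a1 and Col6a1. The count moved with the libraries used. It was 1 within plain-title libraries and 0 with library 63 counted as cKO. With library 63 counted as WT, the calls of Col1a1, Col6a2, Col5a2, Col4a2 and Col6a3 were lost. Leaving out 1 library gave 4 (without P7 cKO library 82) to 16 calls.

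The 11 fibrillar genes summed to 1009 ± 84.9 TPM in P1 WT hearts (mean ± SD, n = 3). At P7 they summed to 1067 ± 146 in cKO and 1198 ± 136 in WT hearts (n = 3 and 5), and at P21 to 621 ± 95.1 in cKO and 376 ± 48.5 in WT hearts (n = 3 and 4). The P21 libraries ran from 520.2 to 709 in cKO and from 314 to 416 in WT hearts, with no overlap. The 8 basement membrane genes summed to 672 ± 80 TPM in P1 WT, 947 ± 41.6 in P7 cKO, 901 ± 67.6 in P7 WT, 582 ± 35.5 in P21 cKO and 367 ± 56.4 TPM in P21 WT hearts. The 25 other genes summed to 331 ± 30.7, 344 ± 30.3, 371 ± 26.8, 243 ± 16 and 159 ± 25.9 TPM in the same groups. In P21 cKO hearts the class sums were 1.65, 1.59 and 1.52 times those of P21 WT hearts for fibrillar, basement membrane and other genes, and 1.41, 1.36 and 1.31 times after scaling. From P7 to P21 the fibrillar sum of WT hearts fell 3.18-fold, the basement membrane sum 2.46-fold and the other sum 2.33-fold, and in cKO hearts these falls were 1.72-fold, 1.63-fold and 1.42-fold. These sums are descriptions and carry no test.

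**Figure D4:**
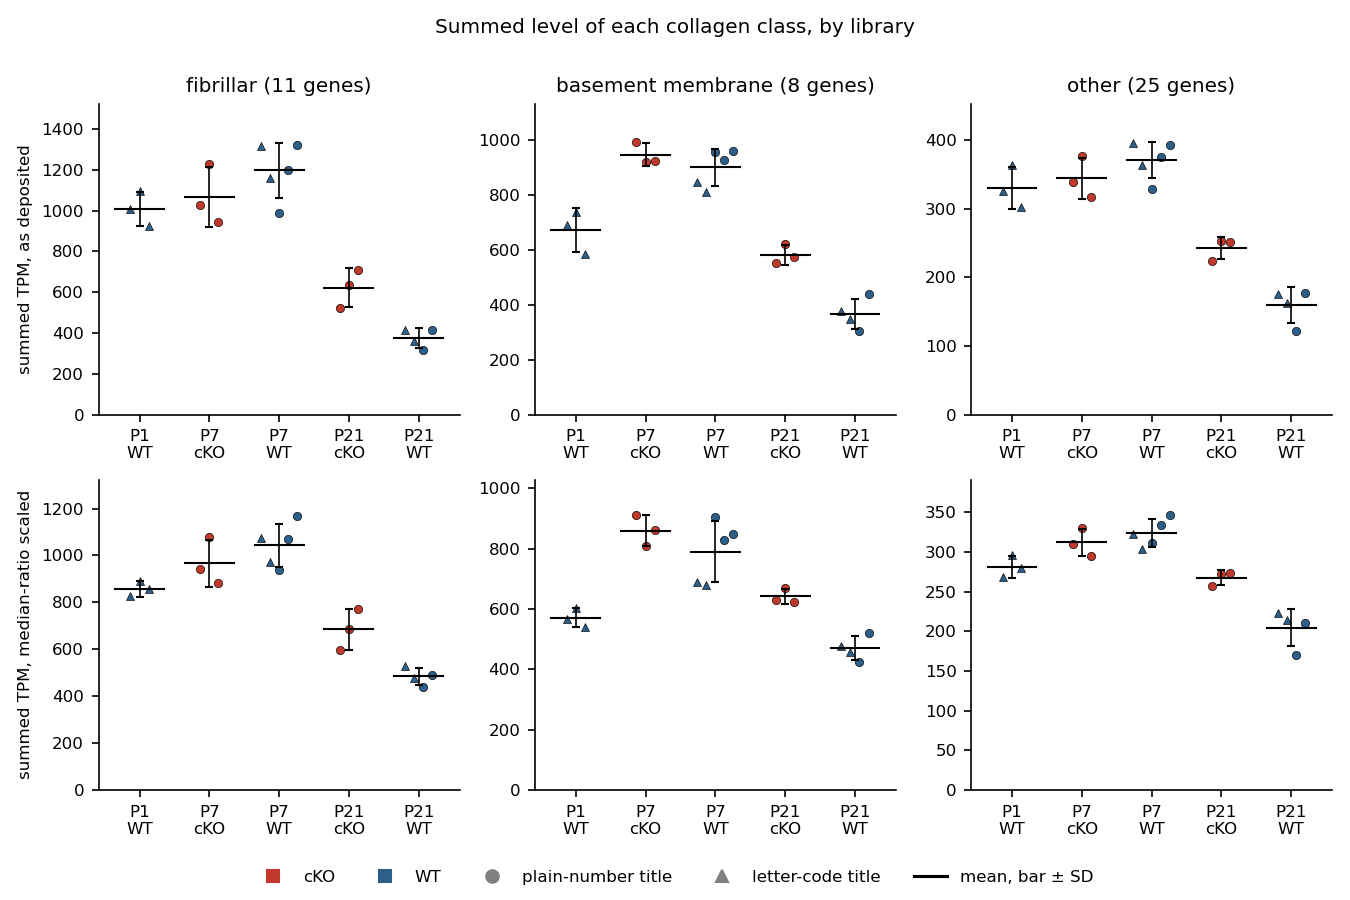
Summed TPM of the fibrillar, basement membrane and other collagen genes by library and group, as deposited (top row) and after median-ratio scaling (bottom row). Points are libraries, lines means and bars SD. In both rows the P21 cKO points lie above the P21 WT points of each class, and the fibrillar sums as deposited average 621 TPM in P21 cKO and 376 TPM in P21 WT hearts.

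Among the fibrillar collagens, Col3a1, the only chain of type III collagen and a partner of type I in cardiac fibrils, was the most abundant. Col3a1 (ENSMUSG00000026043; chr1:45311538-45349706, + strand) stood at 477, 507 and 522 TPM in P1 WT hearts. At P7, Col3a1 had 558, 680.1 and 511 TPM in cKO hearts, against 759, 681, 529, 653 and 721 TPM in WT hearts. At P21, Col3a1 had 305, 378 and 422 TPM in cKO hearts, against 245, 209, 188 and 235 TPM in WT hearts. The P21 WT libraries were the lowest of all groups, and the P21 cKO libraries lay between them and every P7 library. Col3a1 was higher in P21 cKO than in P21 WT hearts (log2 change 0.82 ± 0.14, limma adjusted p = 0.00166), 0.60 above the median gene. In WT hearts Col3a1 rose by P7 (log2 change 0.50 ± 0.14, limma adjusted p = 0.0163) and fell by P21 (log2 change -1.62 ± 0.11, limma adjusted p = 7.07e-09), -1.15 relative to the median gene.

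Col1a1 and Col1a2 encode the α1 and α2 chains of type I collagen, the main tension-bearing fibril of the heart. Col1a1 (ENSMUSG00000001506; chr11:94936224-94953042, + strand) stood at 173, 190.2 and 132 TPM in P1 WT hearts. At P7, Col1a1 had 158, 184 and 145 TPM in cKO hearts, against 179, 152, 156, 181 and 203 TPM in WT hearts. At P21, Col1a1 had 60.8, 70.2 and 86.2 TPM in cKO hearts, against 45.1, 41.8, 35.8 and 49.5 TPM in WT hearts. Col1a1 libraries overlapped between P1 and P7, and at P21 they lay below every earlier library, and the P21 cKO libraries were all above the P21 WT libraries. Col1a2 (ENSMUSG00000029661; chr6:4504814-4541544, + strand) stood at 206, 228 and 154 TPM in P1 WT hearts. At P7, Col1a2 had 187, 220.1 and 166 TPM in cKO hearts, against 238, 201, 186, 225 and 253 TPM in WT hearts. At P21, Col1a2 had 85.8, 100.3 and 112 TPM in cKO hearts, against 66.1, 56.7, 45.8 and 67.1 TPM in WT hearts. Col1a2 showed the same order of groups. At P21 both chains were higher in cKO hearts, Col1a1 by 0.71 ± 0.16 (limma adjusted p = 0.00895) and Col1a2 by 0.78 ± 0.17 (limma adjusted p = 0.00728) on the log2 scale, 0.49 and 0.56 above the median gene. In WT hearts from P7 to P21 they fell, with log2 changes for Col1a1 of −1.99 ± 0.13 and for Col1a2 of −1.90 ± 0.14 (limma adjusted p = 3.94e-09 and 1.27e-08). Without P21 WT library 57 the genotype call of Col1a1 was lost.

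Type V collagen, which starts and limits the width of type I fibrils, has the chains Col5a1, Col5a2 and Col5a3. Col5a1 (ENSMUSG00000026837; chr2:27886425-28039514, + strand) stood at 90.9, 103 and 69.3 TPM in P1 WT hearts. At P7, Col5a1 had 70.3, 86.1 and 69.4 TPM in cKO hearts, against 74.4, 66.9, 67.8, 81.3 and 82 TPM in WT hearts. At P21, Col5a1 had 34.4, 40 and 42.1 TPM in cKO hearts, against 28.3, 25.9, 23.9 and 30.2 TPM in WT hearts. Col5a1 had its highest value at P1, and its P21 cKO libraries lay above its P21 WT libraries. Col5a2 (ENSMUSG00000026042; chr1:45374321-45503282, − strand) stood at 46.6, 52.6 and 34 TPM in P1 WT hearts. At P7, Col5a2 had 39.4, 42.9 and 35.6 TPM in cKO hearts, against 47.4, 44.6, 37.5, 43 and 44.2 TPM in WT hearts. At P21, Col5a2 had 17.4, 20.6 and 21.4 TPM in cKO hearts, against 16.8, 12.9, 10.6 and 14.3 TPM in WT hearts. Col5a2 had its cKO and WT libraries close together at P21 without overlap, with 17.4 TPM lowest in cKO and 16.8 TPM highest in WT hearts. At P21 Col5a1 (log2 change 0.47 ± 0.14, limma adjusted p = 0.029) and Col5a2 (log2 change 0.62 ± 0.15, limma adjusted p = 0.0132) were higher in cKO hearts, and neither was called after scaling (scaled log2 change 0.22, limma adjusted p = 0.214 and scaled log2 change 0.37, limma adjusted p = 0.0576 in that order). Both fell in WT hearts by P21 (-1.42 ± 0.11 and -1.63 ± 0.12 against P7).

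Col5a3 encodes another type V chain and had a different course with age. Col5a3 (ENSMUSG00000004098; chr9:20770050-20815067, − strand) stood at 3.68, 3.94 and 5.18 TPM in P1 WT hearts. At P7, Col5a3 had 8.97, 8.9 and 9.97 TPM in cKO hearts, against 9.23, 9.34, 8.75, 8.9 and 9.13 TPM in WT hearts. At P21, Col5a3 had 12.6, 21.8 and 19.9 TPM in cKO hearts, against 12.7, 11.8, 6.99 and 14.3 TPM in WT hearts. Its P1 libraries were the lowest and P21 held the highest values, with cKO and WT overlapping at P21. Col5a3 rose in WT hearts by P7 (log2 change 1.03 ± 0.21, limma adjusted p = 0.00203), and P21 over P1 was 1.29 ± 0.21 (limma adjusted p = 5.78e-05). The ratio of Col5a3 to Col5a1 TPM was 0.0512 ± 0.0204 in P1 WT, 0.125 ± 0.0202 in P7 cKO, 0.123 ± 0.0125 in P7 WT, 0.462 ± 0.0896 in P21 cKO and 0.418 ± 0.0846 in P21 WT hearts. Its P21 genotype call (log2 change 0.70 ± 0.21, limma adjusted p = 0.0306) was lost after scaling (scaled log2 change 0.46, limma adjusted p = 0.167).

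The 250 bases before the starts of Col3a1 and Col5a3 are shown because Col5a3 was higher and Col3a1 lower in P21 WT than in P1 WT hearts. The sequences come from RefSeq (GRCm38.p6), read 5′ to 3′ on the strand of the gene, with capitals for matches on either strand to 3 motifs. The TATA box was searched as TATAAA. The box named for its letters was searched as CCAAT. The GC box was searched as GGGCGG, whose other strand appears in capitals as the reverse complement. The Col3a1 window is chr1:45311288-45311537 (+ strand) and the Col5a3 window chr9:20815068-20815317 (− strand).
Col3a1: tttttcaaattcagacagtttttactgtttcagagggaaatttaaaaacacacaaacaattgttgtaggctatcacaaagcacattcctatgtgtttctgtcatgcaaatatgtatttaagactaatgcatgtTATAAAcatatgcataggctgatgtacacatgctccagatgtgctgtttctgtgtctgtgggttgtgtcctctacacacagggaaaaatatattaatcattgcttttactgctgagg
Col5a3: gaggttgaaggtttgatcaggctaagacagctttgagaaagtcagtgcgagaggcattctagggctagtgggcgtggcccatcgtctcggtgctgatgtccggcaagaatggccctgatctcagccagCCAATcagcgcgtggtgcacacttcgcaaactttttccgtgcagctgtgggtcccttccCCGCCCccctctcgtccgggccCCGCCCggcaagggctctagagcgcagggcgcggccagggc
The Col3a1 window holds 1 TATA box and neither of the other motifs, and the Col5a3 window holds 1 CCAAT box and 2 GC boxes. RefSeq windows matched 35 of the 44 members, with 38 windows. The TATA box stood in 5 of these 38 windows and in 12.4% of all 32851 windows of this length, the CCAAT box in 13 and 33.8%, and the GC box in 22 and 32.7%. A match describes letters in this window only.

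Of the minor fibrillar genes, Col11a1, a chain of type XI collagen best known from cartilage, was the one with a called fall at both steps. Col11a1 (ENSMUSG00000027966; chr3:114030540-114220718, + strand) stood at 4.19, 4.55 and 2.23 TPM in P1 WT hearts. At P7, Col11a1 had 0.99, 0.98 and 0.8 TPM in cKO hearts, against 1.71, 0.97, 0.81, 1.48 and 1.19 TPM in WT hearts. At P21, Col11a1 had 0.13, 0.28 and 0.06 TPM in cKO hearts, against 0.16, 0.05, 0.05 and 0.08 TPM in WT hearts. Each age lay below the one before it in WT hearts without overlap, and cKO and WT overlapped at P21. Col11a1 fell by P7 (log2 change -0.99 ± 0.20, limma adjusted p = 0.00168) and by P21 (log2 change -1.03 ± 0.16, limma adjusted p = 2.69e-05). Col27a1, a fibrillar collagen of cartilage, averaged 2.59 ± 0.411 TPM in P21 cKO and 1.48 ± 0.263 TPM in P21 WT hearts (SD, n = 3 and 4) and was called (log2 change 0.55 ± 0.14, limma adjusted p = 0.0146). The call was lost after median-ratio or quantile scaling, in plain-title libraries alone and without P21 cKO library 59. Col24a1 ranged over 0.03 to 0.07 and 0 to 0.05 TPM, and Col11a2 over 0.85 to 2.43 and 0.94 to 1.67 TPM, in P21 cKO and P21 WT hearts, with no call.

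Among the basement membrane collagens, Col4a1 and Col4a2 encode the α1 and α2 chains that make up the common type IV network. Col4a1 (ENSMUSG00000031502; chr8:11198423-11312826, − strand) stood at 312, 342 and 255 TPM in P1 WT hearts. At P7, Col4a1 had 467, 416 and 424 TPM in cKO hearts, against 394, 379, 451, 431 and 453 TPM in WT hearts. At P21, Col4a1 had 243, 264 and 237 TPM in cKO hearts, against 157, 138, 120.2 and 177 TPM in WT hearts. P7 libraries were the highest in both genotypes, and the P21 WT libraries the lowest. Col4a2 (ENSMUSG00000031503; chr8:11312805-11449287, + strand) stood at 216, 231 and 189.7 TPM in P1 WT hearts. At P7, Col4a2 had 324, 298 and 310.3 TPM in cKO hearts, against 260.1, 252, 309, 290.0 and 298 TPM in WT hearts. At P21, Col4a2 had 173, 191 and 176 TPM in cKO hearts, against 121, 109.8, 97.5 and 139 TPM in WT hearts. Col4a2 had the same order of groups. Both rose in WT hearts by P7 (log2 change 0.42 ± 0.13, limma adjusted p = 0.0235 for Col4a1, log2 change 0.33 ± 0.11, limma adjusted p = 0.0329 for Col4a2) and fell by P21 (-1.50 ± 0.10 and -1.26 ± 0.09), and both were higher in P21 cKO than in P21 WT hearts (log2 change 0.70 ± 0.13, limma adjusted p = 0.00231 for Col4a1, log2 change 0.56 ± 0.11, limma adjusted p = 0.00332 for Col4a2). Col4a2 was not called after scaling (scaled log2 change 0.30, limma adjusted p = 0.055).

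The genes Col4a1 and Col4a2 lie head to head with starts 21 bases apart, and 22 exon bases are shared by the pair. Whether counting used strand is not given in the sources used here. The ratio of Col4a1 to Col4a2 TPM was 1.35 to 1.41 in P21 cKO and 1.23 to 1.3 in P21 WT hearts, without overlap, and 1.37 to 1.44 in P7 cKO and 1.46 to 1.52 in P7 WT hearts, also without overlap but in the opposite order. In P1 WT hearts it was 1.35 to 1.48.

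Col4a3 and Col4a4, the α3 and α4 chains known from the mature basement membrane of the kidney glomerulus, were rare and went up with age. Col4a3 (ENSMUSG00000079465; chr1:82586921-82722059, + strand) stood at 0.32, 0.53 and 0.4 TPM in P1 WT hearts. At P7, Col4a3 had 0.54, 0.47 and 0.5 TPM in cKO hearts, against 0.69, 0.78, 0.55, 0.61 and 0.75 TPM in WT hearts. At P21, Col4a3 had 2.98, 2.29 and 1.82 TPM in cKO hearts, against 1.12, 1.29, 0.78 and 1.37 TPM in WT hearts. The P21 cKO libraries were all above the P21 WT libraries, which lay in turn above or level with the highest P7 libraries. Col4a4 (ENSMUSG00000067158; chr1:82448423-82586849, − strand) stood at 0.66, 1.02 and 0.65 TPM in P1 WT hearts. At P7, Col4a4 had 1.71, 1.53 and 1.32 TPM in cKO hearts, against 1.57, 1.01, 1.55, 1.29 and 1.61 TPM in WT hearts. At P21, Col4a4 had 3.83, 3.55 and 3.45 TPM in cKO hearts, against 2.29, 2.3, 1.5 and 2.6 TPM in WT hearts. Col4a4 showed P21 cKO libraries above every other library. At P21 both were higher in cKO hearts (log2 change 0.69 ± 0.15, limma adjusted p = 0.0052 for Col4a3, log2 change 0.55 ± 0.15, limma adjusted p = 0.021 for Col4a4), and Col4a4 was not called after scaling (scaled log2 change 0.39, limma adjusted p = 0.0921). From P7 to P21 they rose in WT hearts (log2 change 0.34 ± 0.12, limma adjusted p = 0.0173 for Col4a3, log2 change 0.39 ± 0.12, limma adjusted p = 0.00917 for Col4a4) and in cKO hearts (1.15 ± 0.14 and 0.87 ± 0.15). Exons of the opposite-strand gene C430014B12Rik overlap 5.65% of the exon bases of Col4a3.

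Col4a3 and Col4a4 lie head to head on chromosome 1, and the 71 bases between their RefSeq starts are shown because the pair shares them and rose together. The stretch is chr1:82586850-82586920 (GRCm38.p6, − strand), and it holds none of the 3 motifs on either strand.
Col4a4 to Col4a3: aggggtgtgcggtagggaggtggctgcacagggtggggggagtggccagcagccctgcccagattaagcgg
Col4a5 and Col4a6, the α5 and α6 chains, also form a head-to-head pair, on chromosome X with 1308 bases between the starts.

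Col4a6 (ENSMUSG00000031273; chrX:141165403-141474076, − strand) stood at 3.45, 4.26 and 1.74 TPM in P1 WT hearts. At P7, Col4a6 had 0.73, 1.14 and 0.82 TPM in cKO hearts, against 1.24, 1.02, 0.81, 1.22 and 1.41 TPM in WT hearts. At P21, Col4a6 had 0.75, 0.81 and 0.67 TPM in cKO hearts, against 0.64, 0.6, 0.47 and 0.58 TPM in WT hearts. Col4a6 was highest in P1 WT hearts and at or under 1.41 TPM in every later library. It fell in WT hearts by P7 (log2 change -0.89 ± 0.20, limma adjusted p = 0.00346). Col4a5 was 36.4 ± 8.28 TPM in P1 WT, 30.4 ± 2 in P7 cKO, 32 ± 2.07 in P7 WT, 26.2 ± 1.96 in P21 cKO and 20.1 ± 1.46 TPM in P21 WT hearts (mean ± SD). Its P7 over P1 change was -0.13 ± 0.13 and not called. The P21 genotype call of Col4a5 (log2 change 0.39 ± 0.13, limma adjusted p = 0.0483) did not hold after scaling (scaled log2 change 0.14, limma adjusted p = 0.433), and it was lost in 14 of the 18 fits that leave out 1 library.

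Col15a1 and Col18a1 encode collagens XV and XVIII, basement membrane proteoglycans of the same family, and they parted with age. Col15a1 (ENSMUSG00000028339; chr4:47208161-47313167, + strand) stood at 58.1, 55.9 and 70.5 TPM in P1 WT hearts. At P7, Col15a1 had 129.5, 132 and 119 TPM in cKO hearts, against 119, 104, 124, 127 and 134 TPM in WT hearts. At P21, Col15a1 had 90.9, 124 and 123 TPM in cKO hearts, against 70.7, 72.2, 58.5 and 89.5 TPM in WT hearts. Col15a1 was lower in each P1 library than in any P7 library, and at P21 cKO lay above WT without overlap. Col18a1 (ENSMUSG00000001435; chr10:77052178-77166548, − strand) stood at 62.2, 63 and 38.9 TPM in P1 WT hearts. At P7, Col18a1 had 42.8, 39.8 and 39.1 TPM in cKO hearts, against 36, 41, 41.5, 45.5 and 39.8 TPM in WT hearts. At P21, Col18a1 had 8.12, 9.27 and 7.47 TPM in cKO hearts, against 4.78, 5.02, 5.03 and 4.94 TPM in WT hearts. Col18a1 was lower at P21 than at any earlier age in both genotypes, with P21 cKO above P21 WT libraries. Col15a1 rose by P7 in WT hearts (log2 change 0.90 ± 0.15, limma adjusted p = 0.000398). Col18a1 fell by P7 (log2 change -0.43 ± 0.14, limma adjusted p = 0.0336) and by P21 (log2 change -2.80 ± 0.12, limma adjusted p = 2.05e-11). The later fall of Col18a1 was the largest of all tested members on the log2(TPM + 1) scale, where changes of low genes come out too small. From P7 WT to P21 WT hearts, mean TPM fell more steeply for Col11a1 (1.23 to 0.085) than for Col18a1 (40.8 to 4.94). The P7 call of Col18a1 was lost in 4 of the 18 fits that leave out 1 library. Its P1 library at 38.9 TPM lay within the range of the P7 WT libraries. The ratio of Col15a1 to Col18a1 TPM was 1.21 ± 0.522 in P1 WT, 3.13 ± 0.172 in P7 cKO, 2.99 ± 0.351 in P7 WT, 13.7 ± 2.65 in P21 cKO and 14.7 ± 2.65 in P21 WT hearts. Both were higher in P21 cKO hearts (log2 change 0.56 ± 0.15, limma adjusted p = 0.0154 for Col15a1, log2 change 0.60 ± 0.14, limma adjusted p = 0.0105 for Col18a1), and neither was called after scaling (scaled log2 change 0.31, limma adjusted p = 0.197 and scaled log2 change 0.38, limma adjusted p = 0.0845 in that order).

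**Figure D5:**
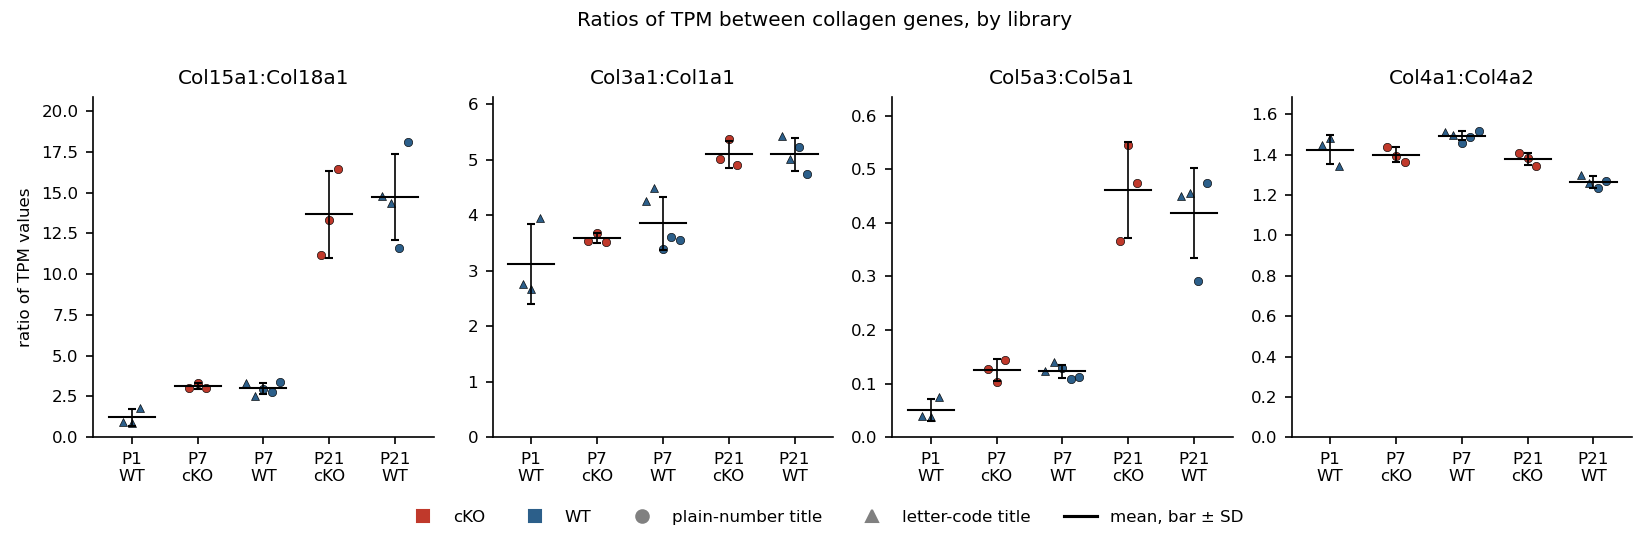
Ratios of TPM between pairs of collagen genes, by library and group, with means and SD. Col15a1:Col18a1, Col3a1:Col1a1 and Col5a3:Col5a1 stand higher at P21 than at P7, with cKO and WT overlapping at P21, and Col4a1:Col4a2 at P21 runs over 1.35 to 1.41 in cKO and 1.23 to 1.3 in WT hearts.

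The ratio of Col3a1 to Col1a1 also moved with age. It was 3.13 ± 0.717 in P1 WT, 3.59 ± 0.0898 in P7 cKO, 3.86 ± 0.478 in P7 WT, 5.1 ± 0.249 in P21 cKO and 5.1 ± 0.296 in P21 WT hearts. The ratio of Col1a1 to Col1a2, the chains of the same molecule, was 0.833 to 0.855 in P1 WT, 0.837 to 0.871 in P7 cKO, 0.751 to 0.837 in P7 WT, 0.7 to 0.767 in P21 cKO and 0.682 to 0.782 in P21 WT hearts. Every P21 library lay below every P1 WT and P7 cKO library, while P21 WT and P7 WT overlapped. The ratio of Col6a1 to Col6a2, also chains of 1 molecule, was 0.842 to 0.893 in P1 WT, 0.876 to 0.938 in P7 cKO, 0.901 to 0.95 in P7 WT, 1.04 to 1.2 in P21 cKO and 1.08 to 1.18 in P21 WT hearts, with every P21 library above every earlier one. The Col15a1:Col18a1, Col3a1:Col1a1 and Col5a3:Col5a1 ratios were chosen with results in view, and no ratio carries a test.

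Among the other collagens, all 4 tested type VI chains, Col6a1, Col6a2, Col6a3 and Col6a6, were higher in P21 cKO than in P21 WT hearts and stayed so after median-ratio scaling. The call of Col6a6 was lost under quantile normalization, in plain-title libraries alone and with library 63 counted as cKO. Col6a1 (ENSMUSG00000001119; chr10:76708792-76726168, − strand) stood at 96.2, 107 and 88.1 TPM in P1 WT hearts. At P7, Col6a1 had 106, 113 and 93.4 TPM in cKO hearts, against 116, 113, 100, 112 and 116 TPM in WT hearts. At P21, Col6a1 had 82, 91 and 87.3 TPM in cKO hearts, against 61.6, 56.2, 43.8 and 64.9 TPM in WT hearts. Col6a1 libraries overlapped between P1 and P7, and the level was lower at P21, least so in cKO hearts. Col6a2 (ENSMUSG00000020241; chr10:76595762-76623630, − strand) stood at 114, 120.0 and 104 TPM in P1 WT hearts. At P7, Col6a2 had 113, 120.5 and 107 TPM in cKO hearts, against 122, 119, 111, 122 and 126 TPM in WT hearts. At P21, Col6a2 had 68.6, 84.1 and 83.9 TPM in cKO hearts, against 56.3, 52.2, 37.1 and 57.5 TPM in WT hearts. Col6a2 likewise dropped at P21, more so in WT hearts. The P21 genotype changes were 0.67 ± 0.12 (limma adjusted p = 0.00223) for Col6a1 and 0.69 ± 0.13 (limma adjusted p = 0.00264) for Col6a2, 0.45 and 0.48 above the median gene. From P7 to P21 Col6a1 fell in WT hearts (log2 change -0.99 ± 0.10, limma adjusted p = 2.8e-07) and was not called in cKO hearts (log2 change -0.26 ± 0.12, limma adjusted p = 0.0831), and the interaction above tests that difference.

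Col6a3 (ENSMUSG00000048126; chr1:90765923-90843971, − strand) stood at 32.9, 41.3 and 32.3 TPM in P1 WT hearts. At P7, Col6a3 had 42.8, 44.8 and 39.8 TPM in cKO hearts, against 51.7, 40.5, 38.8, 43 and 47.9 TPM in WT hearts. At P21, Col6a3 had 32.7, 37.8 and 38.5 TPM in cKO hearts, against 27, 26.7, 19.5 and 25.8 TPM in WT hearts. Col6a3, the longest of the common type VI chains, had separate cKO and WT libraries at P21, and library 57 at 19.5 TPM lay below the other P21 WT libraries. Col6a6 (ENSMUSG00000043719; chr9:105687809-105828160, − strand) stood at 6.5, 6.81 and 4.6 TPM in P1 WT hearts. At P7, Col6a6 had 6.33, 10.9 and 5.53 TPM in cKO hearts, against 8.37, 8.85, 5.82, 7.09 and 8.03 TPM in WT hearts. At P21, Col6a6 had 4.09, 4.08 and 4.13 TPM in cKO hearts, against 2.52, 2.26, 2.16 and 2.21 TPM in WT hearts. Col6a6, an α3-like chain, was tight within each P21 group and spread at P7. At P21 Col6a3 (log2 change 0.62 ± 0.13, limma adjusted p = 0.00468) and Col6a6 (log2 change 0.73 ± 0.19, limma adjusted p = 0.0147) were higher in cKO hearts. In WT hearts by P21 they fell (-0.84 ± 0.10 and -1.40 ± 0.15 against P7). Against P1, Col6a3 in P21 WT hearts was -0.43 ± 0.13 as deposited and 0.12 after scaling, so its direction depends on the scaling.

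Of the FACIT collagens, which decorate fibrils of type I, Col14a1 had the largest genotype change at P21. Col14a1 (ENSMUSG00000022371; chr15:55307750-55520803, + strand) stood at 30.8, 30.3 and 31.3 TPM in P1 WT hearts. At P7, Col14a1 had 37.4, 46.1 and 36.2 TPM in cKO hearts, against 50.2, 46.2, 37.3, 47 and 50.2 TPM in WT hearts. At P21, Col14a1 had 14, 15.7 and 18.4 TPM in cKO hearts, against 9.96, 9.65, 6.96 and 10.8 TPM in WT hearts. Col14a1 peaked at P7 and its P21 cKO libraries lay between the P7 and the P21 WT libraries. It rose by P7 (log2 change 0.64 ± 0.15, limma adjusted p = 0.00421), fell by P21 (log2 change -2.21 ± 0.12, limma adjusted p = 2.97e-10) in WT hearts, and was higher in P21 cKO than in P21 WT hearts (log2 change 0.79 ± 0.15, limma adjusted p = 0.00245), 0.57 above the median gene. Col12a1 (ENSMUSG00000032332; chr9:79598991-79718831, − strand) stood at 6.57, 11 and 4.57 TPM in P1 WT hearts. At P7, Col12a1 had 4.2, 5.02 and 3.29 TPM in cKO hearts, against 5.76, 3.49, 3.88, 5.62 and 5.52 TPM in WT hearts. At P21, Col12a1 had 0.79, 0.56 and 0.86 TPM in cKO hearts, against 0.68, 0.64, 0.34 and 0.35 TPM in WT hearts. Col12a1, the relative of Col14a1 found in stretched tissues, fell below 1 TPM in every P21 library. The change in WT hearts by P21 was -1.96 ± 0.20 (limma adjusted p = 3.32e-07), and at P21 the genotypes overlapped (log2 change 0.25 ± 0.24, limma adjusted p = 0.462).

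Col9a2, a chain of the cartilage FACIT collagen IX, fell at both steps. Col9a2 (ENSMUSG00000028626; chr4:121039385-121055322, + strand) stood at 5.66, 6.25 and 3.69 TPM in P1 WT hearts. At P7, Col9a2 had 1.68, 1.64 and 2.28 TPM in cKO hearts, against 1.75, 1.89, 2.01, 3.12 and 2.9 TPM in WT hearts. At P21, Col9a2 had 0.3, 0.69 and 0.59 TPM in cKO hearts, against 0.34, 0.16, 0.09 and 0.53 TPM in WT hearts. P1 libraries were the highest and P21 libraries the lowest, with the genotypes overlapping at both later ages. Col9a2 fell by P7 (log2 change -1.03 ± 0.20, limma adjusted p = 0.00132) and by P21 (log2 change -1.35 ± 0.16, limma adjusted p = 1.75e-06). Col16a1 fell by P21 in WT hearts (log2 change -1.33 ± 0.13, limma adjusted p = 2.07e-07) and was not called between genotypes at P21 (log2 change 0.40 ± 0.16, limma adjusted p = 0.081). Col9a3 had 0.36 to 0.59 TPM in P21 cKO and 0.13 to 1.04 TPM in P21 WT hearts with no call, and it was the single tested member with a negative change there (-0.02 ± 0.22). Exons of the opposite-strand gene Tcfl5 overlap 6.07% of the exon bases of Col9a3.

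Col8a1, a short-chain collagen of vessel walls and of the subendothelial matrix, rose with age. Col8a1 (ENSMUSG00000068196; chr16:57624258-57754737, − strand) stood at 1.03, 0.89 and 0.99 TPM in P1 WT hearts. At P7, Col8a1 had 3.01, 2.59 and 3.01 TPM in cKO hearts, against 3.25, 2.12, 2.51, 2.68 and 2.45 TPM in WT hearts. At P21, Col8a1 had 5.48, 4.9 and 3.79 TPM in cKO hearts, against 3.77, 2.51, 2.41 and 3.43 TPM in WT hearts. P1 libraries were the lowest, near 1 TPM, and P21 cKO libraries the highest. Col8a1 rose in WT hearts by P7 (log2 change 0.90 ± 0.16, limma adjusted p = 0.000651), and its P21 genotype call (log2 change 0.54 ± 0.16, limma adjusted p = 0.0253) did not hold after scaling (scaled log2 change 0.35, limma adjusted p = 0.161). The 250 bases before its RefSeq start, chr16:57754738-57754987 (GRCm38.p6, − strand), are shown since Col8a1, like Col5a3, rose by P7.
Col8a1: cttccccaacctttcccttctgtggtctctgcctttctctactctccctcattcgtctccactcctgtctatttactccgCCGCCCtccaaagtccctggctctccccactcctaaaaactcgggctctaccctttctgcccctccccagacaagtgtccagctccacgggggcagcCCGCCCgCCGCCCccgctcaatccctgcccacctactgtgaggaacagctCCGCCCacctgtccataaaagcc
This window holds 4 GC boxes, counted on both strands and in capitals, and neither of the other motifs. Col8a2, the other chain of type VIII collagen, ranged over 0.34 to 0.51 TPM in P21 cKO and 0.14 to 0.31 TPM in P21 WT hearts and fell in WT hearts by P21 (log2 change -0.70 ± 0.12, limma adjusted p = 6.67e-05).

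The membrane-spanning collagens Col13a1 and Col23a1 had their highest levels at P1. Col23a1 (ENSMUSG00000063564; chr11:51289920-51583918, + strand) stood at 3.23, 4.44 and 2.68 TPM in P1 WT hearts. At P7, Col23a1 had 0.98, 1.1 and 0.76 TPM in cKO hearts, against 0.93, 0.73, 0.81, 0.89 and 0.8 TPM in WT hearts. At P21, Col23a1 had 0.58, 0.56 and 0.61 TPM in cKO hearts, against 0.18, 0.35, 0.3 and 0.39 TPM in WT hearts. Col23a1 was higher in each P1 library than in any later one. Col13a1 (ENSMUSG00000058806; chr10:61838236-61979108, − strand) stood at 2.57, 3.35 and 2.92 TPM in P1 WT hearts. At P7, Col13a1 had 0.48, 0.93 and 0.86 TPM in cKO hearts, against 1.18, 1.1, 0.69, 0.8 and 1.06 TPM in WT hearts. At P21, Col13a1 had 0.71, 0.71 and 0.58 TPM in cKO hearts, against 0.58, 0.48, 0.48 and 0.72 TPM in WT hearts. Col13a1 likewise had each P1 library above every later one. Both fell by P7 in WT hearts (log2 change -1.29 ± 0.14, limma adjusted p = 1.89e-05 for Col23a1, log2 change -0.95 ± 0.14, limma adjusted p = 0.00021 for Col13a1). Col13a1 is a collagen of the neuromuscular junction, and its fall from P7 to P21 (log2 change -0.33 ± 0.11, limma adjusted p = 0.0162) was not called after scaling (scaled log2 change -0.09, limma adjusted p = 0.463). The change of Col23a1 at P21 between genotypes was 0.26 ± 0.14 (limma adjusted p = 0.19).

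Col26a1 (ENSMUSG00000004415; chr5:136741759-136883209, − strand) stood at 6.13, 6.86 and 6.69 TPM in P1 WT hearts. At P7, Col26a1 had 5.76, 6.74 and 6.56 TPM in cKO hearts, against 7.19, 7.45, 7.78, 7.56 and 7.52 TPM in WT hearts. At P21, Col26a1 had 1.39, 1.68 and 1.19 TPM in cKO hearts, against 1.85, 1.13, 0.94 and 0.9 TPM in WT hearts. Col26a1, a collagen described in the developing testis and ovary, was higher in every P7 WT library than in any P1 library, with no called change (log2 change 0.25 ± 0.13, limma adjusted p = 0.165). It was lower at P21 in both genotypes, which overlapped. The fall from P7 to P21 was -1.98 ± 0.10 (limma adjusted p = 2.94e-10) in WT hearts and -1.61 ± 0.13 (limma adjusted p = 9.2e-08) in cKO hearts. Col7a1, the anchoring fibril collagen of skin, ranged over 0.62 to 1.15 TPM in P21 cKO and 0.32 to 0.96 TPM in P21 WT hearts with no call.

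Genes that make, fold, process, bind or degrade collagen were taken from textbook lists, and 50 of 57 were tested. In P21 cKO hearts 24 were higher and 0 lower than in P21 WT hearts by limma, beside 19.5% and 1.77% of all genes, and their median change was 0.36. After scaling 11 were higher and 3 lower (P4ha2, Mia2 and Adamts3), beside 4% and 5.33%. Without P21 WT library 57 the calls numbered 13. In P7 cKO hearts 1 gene was called, P4ha3. From P7 to P21 in WT hearts 37 fell and 4 rose, against 64.4% and 8.1% of all genes, and after scaling 28 and 11, against 27.4% and 27%. From P1 to P7 14 rose and 5 fell, against 13.8% and 14.7%.

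Among the 15 enzymes and partners that hydroxylate and glycosylate collagen, 8 were higher in P21 cKO hearts, against 19.5% of all genes. After scaling 4 were higher and 1 lower, against 4% and 5.33% of all genes. P4ha3, a catalytic subunit of prolyl 4-hydroxylase, stood apart. In P1 WT hearts P4ha3 had 6.42, 8.74 and 3.81 TPM. At P7, P4ha3 had 789.8, 776 and 833 TPM in cKO hearts, against 3.44, 3.24, 2.14, 3.32 and 2.3 TPM in WT hearts. At P21, P4ha3 had 575, 575 and 542 TPM in cKO hearts, against 0.07, 0.3, 0.09 and 0.13 TPM in WT hearts. The cKO libraries were the highest at both ages by a wide gap, and library 63 had 0.05 TPM. P4ha3 was higher in cKO hearts at P7 (log2 change 7.78 ± 0.18, limma adjusted p = 2.15e-13) and at P21 (log2 change 9.05 ± 0.19, limma adjusted p = 6.28e-14). Its sister subunit P4ha1 had 15.2 to 19.1 TPM in P21 cKO and 12.8 to 20 TPM in P21 WT hearts, which overlapped. P4hb, the shared β subunit, had 129, 130.3 and 125 TPM in P21 cKO hearts, against 80.6, 76.4, 76.7 and 87.6 TPM in P21 WT hearts, and was higher (log2 change 0.65 ± 0.07, limma adjusted p = 7.89e-05). Plod1, a lysyl hydroxylase (log2 change 0.43 ± 0.08, limma adjusted p = 0.00245), and P3h3, of the prolyl 3-hydroxylase family (log2 change 0.52 ± 0.10, limma adjusted p = 0.0026), were also higher.

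Of 8 tested folding and secretion genes 3 were higher in P21 cKO hearts, namely Creb3l1, a transcription factor of collagen secretion (log2 change 0.70 ± 0.14, limma adjusted p = 0.004), Tram2 (log2 change 0.47 ± 0.12, limma adjusted p = 0.0116) and Fkbp10, a prolyl isomerase chaperone (log2 change 0.24 ± 0.08, limma adjusted p = 0.0499). Among all genes 19.5% were called higher. The median change of this list was 0.16, beside 0.22 for all genes, and the 0.24 of Fkbp10 lay close to the latter. After scaling 2 of the 8 were higher and 1 lower, against 4% and 5.33% of all genes. Fkbp10 was also among the genes that fell by P21 in WT hearts (log2 change -1.93 ± 0.07, limma adjusted p = 4.28e-12), as did Serpinh1, the collagen chaperone HSP47 (log2 change -0.68 ± 0.07, limma adjusted p = 3.85e-07). Of 10 propeptide and crosslinking genes 4 were higher in P21 cKO hearts, with Pcolce, the enhancer of procollagen C-proteinase (log2 change 0.59 ± 0.10, limma adjusted p = 0.00129), Bmp1, that proteinase (log2 change 0.40 ± 0.08, limma adjusted p = 0.00316), Loxl1, a crosslinking oxidase (log2 change 0.48 ± 0.13, limma adjusted p = 0.0192), and Adamts14, an N-propeptidase (log2 change 0.34 ± 0.11, limma adjusted p = 0.0452). After scaling 1 of the 10 was higher and 1 lower, against the same 4% and 5.33%. All 3 of Pcolce, Bmp1 and Adamts14 fell by P21 in WT hearts (-1.08, -1.27 and -1.17 on the log2 scale).

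Of 8 collagen receptor genes 4 were higher in P21 cKO hearts, with the integrin chains Itgb1 (log2 change 0.41 ± 0.07, limma adjusted p = 0.00231) and Itga1 (log2 change 0.46 ± 0.09, limma adjusted p = 0.00404), the uptake receptor Mrc2 (log2 change 0.49 ± 0.10, limma adjusted p = 0.00437) and the collagen-binding kinase Ddr2 (log2 change 0.33 ± 0.10, limma adjusted p = 0.034). Among all genes 19.5% were called higher, and 4% after scaling. After scaling 2 of the 8 receptor genes were higher and 0 lower. Of 9 degradation genes 5 were higher, among them the proteases Mmp14 (log2 change 0.83 ± 0.19, limma adjusted p = 0.00813), Mmp2 (log2 change 0.53 ± 0.14, limma adjusted p = 0.0151) and Ctsk (log2 change 0.52 ± 0.15, limma adjusted p = 0.0248) and the inhibitor Timp1 (log2 change 0.58 ± 0.10, limma adjusted p = 0.00186). After scaling 2 of these 9 were higher and 0 lower. Genes that build and genes that break down collagen were both among the higher ones. Mmp14 and Timp1 were also lower in P21 WT than in P7 WT hearts (log2 change -2.29 ± 0.15, limma adjusted p = 3.8e-09 for Mmp14, log2 change -1.87 ± 0.08, limma adjusted p = 3.8e-11 for Timp1).

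Markers of the cells that make collagen were also among the genes called higher at P21. In P21 cKO hearts 6 of 9 tested fibroblast, 5 of 8 activated fibroblast, 8 of 10 endothelial and 5 of 8 mural (vessel wall) markers were higher than in P21 WT hearts and 0 were lower, against 19.5% and 1.77% of all genes. After scaling the higher counts were 2, 2, 1 and 1, against 4%. Fibroblast markers summed to 1216 to 1349 TPM in P21 cKO and 773 to 1014 TPM in P21 WT hearts. Activated fibroblast markers summed to 454 to 751 TPM in cKO and 295 to 492 TPM in WT hearts, which overlapped. Endothelial markers summed to 585 to 627 TPM in cKO and 369 to 491 TPM in WT hearts. No sum is given for the mural list, because Des, which is also a heart muscle gene, gave most of it at P21. Des is also among the 5 mural markers called higher as deposited, beside Abcc9, Kcnj8, Pdgfrb and Rgs5. The named fibroblast genes were Dcn (0.50 on the log2 scale), Dpt (0.64), Gsn (0.65) and Tcf21 (0.83), and among endothelial and mural genes Pecam1 (0.47), Cdh5 (0.52) and Pdgfrb (0.75) were higher. Among activated fibroblast genes, Postn (limma adjusted p = 0.000317) and Fn1 (0.65) were higher. Their part in the collagen result was not tested.

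With age the same lists held calls in both directions. From P7 to P21 in WT hearts 5 of 9 fibroblast markers fell and 3 rose, against 64.4% lower and 8.1% higher among all genes, and the list's sum was 773 to 1014 TPM at P21 and 602 to 848 TPM at P7. Activated fibroblast markers fell in 5 of 8, with sums of 295 to 492 TPM at P21 and 815 to 1163 TPM at P7, and endothelial markers in 9 of 10, with 369 to 491 and 782 to 948 TPM. Proliferation markers fell in 5 of 5, with 5.55 to 9.52 TPM at P21 and 197 to 269 TPM at P7. After scaling, 2 fibroblast markers were lower and 4 higher, 5 activated fibroblast markers lower and 1 higher, and 5 endothelial markers lower and 2 higher, against 27.4% and 27% of all genes. As deposited, Postn (-3.71) and Fn1 (-2.82) fell, while Gsn rose (limma adjusted p = 5.45e-10). Whether these changes bear on the collagen falls was not tested.

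The macrophage and cardiac muscle lists held no call at P21. Of 9 macrophage markers 0 and of 9 cardiac muscle markers 0 were higher or lower between P21 cKO and P21 WT hearts by limma, with 0 and 1 at an unadjusted p under 0.05, and after scaling 1 and 2 were lower. Macrophage markers summed to 137 to 195 TPM in P21 cKO and 148 to 232 TPM in P21 WT hearts. Among all genes 19.5% were called higher and 1.77% lower in this comparison, and 4% and 5.33% after scaling. Of 3 tested Schwann cell markers 2 were higher, and 1 after scaling. Of 4 skeletal muscle markers 1, Tnni2, was lower, and the skeletal myosins Myh1, Myh2 and Myh4 stayed at or under 0.11 TPM in every library. Of 6 epicardial, 3 valve or cartilage and 5 proliferation markers 0 were called, with 0, 0 and 0 at an unadjusted p under 0.05. Transcripts of the mitochondrial genome held a mean of 20.3% of TPM in P21 cKO and 23.5% in P21 WT hearts. With these and the haemoglobin genes removed before TPM were rescaled, 18 members were higher and 0 lower in P21 cKO hearts. The calls of Col5a1 and Col4a5 were lost, and the share of all genes called in that fit is not given here.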

How the data were processed

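The values deposited by the authors were TPM, given for each gene in each library. Per the submitters' processing notes, TopHat2 2.0.14, Cufflinks 2.2.1 and mm10 were used. The sources used here do not give how TPM was made or whether strand was used. The labels' protocols name RNA iso Plus for isolation and the SMARTER mRNA-Seq kit. A further 2 columns matched no sample and were left aside.

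A single model of 18 of the 19 libraries was fitted in limma 3.58.1 (R 4.3.3, version 1.17.8 of data.table, lmFit and eBayes with trend) on log2(TPM + 1), with group and title style as terms. Tests covered the 14812 genes that reached 1 TPM in 3 or more libraries, and p-values were adjusted over all of them (Benjamini-Hochberg, 0.05) in each comparison. Median-ratio size factors came from 16318 genes. The step was tested on simulated data. Tables and figures used Python 3.11.15, pandas 2.3.3, numpy 2.4.6 and matplotlib 3.10.9.

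Values per library are given for the 12 members with the highest mean and, per comparison, for up to 6 called members per direction with the largest change, and list genes are named by the smallest p, up to 4 per list. Members, classes, lists and tests were chosen with earlier results of these data known. Gene positions are from GENCODE M21 (mm10). Alternatives were median-ratio and quantile scaling, mitochondrial and haemoglobin genes removed, a pseudocount of 0.1, a filter of 5 TPM or none, no title style term, plain titles alone, a replicate block, library 63 counted as cKO or as WT, and the omission of every library in turn.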

Additional observations from a re-analysis of the deposited data

Results flagged for a closer look

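Of 82 gene and group combinations of 4 or 5 libraries checked for a library far from the others 2 stood out. Chance gives about 1 in 20, so these 2 are fewer than chance alone would give. Col6a1 in P7 WT hearts had 1 library, numbered 72, at 99.96 TPM, below the other 4. Col6a3 in P21 WT hearts had library 57 at 19.5 TPM, below the other 3.

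The genotype effect differed between P21 and P7 for 12 members by the interaction term. The P21 effect minus the P7 effect, on the log2 scale, was 0.96 for Col1a2, 0.95 for Col3a1, 0.94 for Col14a1, 0.83 for Col1a1, 0.81 for Col4a3 and 0.73 for Col6a1. It was 0.73 for Col6a2, 0.69 for Col4a1, 0.68 for Col5a2, 0.64 for Col18a1, 0.62 for Col6a3 and 0.47 for Col4a2. The median of all tested genes was 0.24 in this contrast, and 8 of the 12 lost the call in at least 1 fit that left out a library. Of the 18 such fits, the call was lost in 15 for Col4a2, 14 for Col18a1, 12 for Col5a2 and 10 for Col6a3. It was lost in 7 for Col1a1, 4 for Col6a2, 3 for Col1a2 and 2 for Col4a1. Col3a1, Col14a1, Col6a1 and Col4a3 kept it in every fit.

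The P21 library in no group, numbered 63, lay above all P21 WT libraries for 18 of 33 tested members and below all P21 cKO libraries for 25, and for 14 of them it was between the groups. It had 275 TPM of Col3a1, 197 TPM of Col4a1, 146 TPM of Col4a2, 79.1 TPM of Col1a2, 58.2 TPM of Col1a1 and 108 TPM of Col15a1. Its other values among the 12 highest members above all P21 WT libraries were 68.6 TPM of Col6a2, 70.2 TPM of Col6a1, 35 TPM of Col5a1, 28.8 TPM of Col6a3 and 5.63 TPM of Col18a1. Its P4ha3 level of 0.05 TPM lay with the P21 WT libraries.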

How the results depend on the processing

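Called collagens kept their direction under most settings. Of 130 called member changes, median-ratio scaling kept 99, lost 30 and reversed 1, and quantile normalization kept 96, lost 32 and reversed 2. The cause was not tested. For P21 cKO against P21 WT hearts the calls were 10 under either scaling and 13 with library 63 as cKO. Quantile normalization kept Col4a2 and lost Col6a6, and median-ratio scaling did the reverse. With the 5 TPM filter, which tests fewer members (19), the calls were 8 for WT P7 against P1, 18 for WT P21 against P7, 18 for WT P21 against P1 and 15 for cKO P21 against P7. The interaction calls were 3 (median-ratio), 2 (quantile), 7 (no filter), 1 (plain titles), 0 (library 63 as cKO) and 7 (library 63 as WT). Pathway calls at P7 were 0 with library 63 as cKO. At P21 between genotypes they were 14 (median-ratio) and 12 (library 63 as cKO), and for the interaction 2 (median-ratio), 4 (quantile), 8 (no filter), 2 (plain titles) and 0 (library 63 as cKO). Log2 ratios of class sums after median-ratio scaling were 0.50 (P21 cKO over WT), -1.11 (WT P21 over P7), -0.82 (WT P21 over P1) and -0.50 (cKO P21 over P7) for fibrillar genes. In the same order they were 0.45, -0.75, -0.28 and -0.42 for basement membrane and 0.39, -0.66, -0.46 and -0.22 for other genes. Col13a1 in WT P21 against P7 turned to 0.0036 (quantile), and Col6a3 in WT P21 against P1 to 0.12 (median-ratio) and 0.10 (quantile). Leaving out 1 library gave collagen calls of 0 to 0 (P7 cKO), 12 to 20 (P21 cKO), 9 to 17 (WT P7 against P1), 27 to 29 (WT P21 against P7), 29 to 31 (WT P21 against P1), 22 to 24 (cKO with age) and 4 to 16 (interaction). In the same order the pathway calls were 1 to 1, 13 to 30, 14 to 20, 41 to 42, 38 to 42, 29 to 36 and 3 to 22. The lowest counts came without P21 WT library 57 (12 and 13), P7 WT library 1 (9), and P7 cKO libraries 82 (4) and 69 (3). With the replicate number as a block, collagen calls were 0, 20, 14, 28, 30, 23 and 11 and pathway calls 1, 24, 19, 41, 40, 35 and 11. Deviations of same-numbered libraries correlated at -0.095 to 0.066. The P7 and P21 WT groups hold 2 letter-code libraries each, whose deviations mirror each other. These values therefore cannot show whether the numbers pair libraries. TPM keeps no depth, so no counting error or detection limit can be given, and members near 1 TPM are the least certain.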
